A study of Mus musculus with 3 samples.

Results

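The 9 genes described here carry out or steer the building and breakdown of glycogen, the branched glucose store of muscle. They were taken by name from a list, and they are 9 of the 32285 genes in the deposited count matrices. All 9 were found in the matrices and in the mm10 annotation. The values are counts of unique molecular identifiers (UMIs), one per captured transcript, from single cells of mouse hearts.

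The hearts fell into 3 groups of 1 library each, Prkag2-p.R299Q, Myh6-R404Q and wild type (WT). Prkag2 encodes a regulatory subunit of AMPK, a kinase that senses the energy state of the cell, and p.R299Q is a missense change in it. Myh6 encodes a myosin heavy chain that drives contraction in the adult mouse heart, and R404Q is a missense change in that protein. Mutations of either gene are known in models of cardiac hypertrophy. All mice of the series were male, of strain C57/B6J, and total cells were taken after collagenase digestion and passage through a 70 µm strainer. Age, zygosity and hearts per library are not known from the labels used here. With 1 library per genotype, no difference between genotypes has a replicate check, no test was made, and every interval below covers counting error only.

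Glycogen is built from UDP-glucose, which Ugp2 makes. Gys1, the muscle form of glycogen synthase, adds the glucose to a chain, and Gbe1 adds the branches. Pygm and Pygb, the muscle and brain forms of glycogen phosphorylase, cut glucose off again once phosphorylase kinase has activated them, and Phka1 is the muscle form of the regulatory alpha subunit of that kinase. Ppp1r3a and Ppp1r3c bring protein phosphatase 1 to the glycogen particle, where it activates the synthase and turns off the phosphorylase. Stbd1 binds glycogen and is known for its part in carrying glycogen to lysosomes. In heart muscle, mutations of Prkag2 are known for excess glycogen storage.

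The libraries held 7951 barcodes and 31385005 UMIs for Prkag2-p.R299Q, 12662 barcodes and 38251499 UMIs for Myh6-R404Q, and 18033 barcodes and 41047991 UMIs for WT. The Myh6-R404Q matrix came with 38646 barcodes, and those of suffix 1 and suffix 2 repeated the Prkag2-p.R299Q and WT matrices with 0 entries that differed, so only its barcodes of suffix 3 were used. That the suffix 3 barcodes are the Myh6-R404Q cells follows by elimination and not from a label. Libraries shared 28 to 51 barcode sequences in pairs. After filters and doublet removal 6841, 10555 and 14831 cells were kept in Prkag2-p.R299Q, Myh6-R404Q and WT, with median depths of 2344, 1851 and 1413 UMIs. The cells fell into 22 clusters, named from marker genes as 14 classes, of which 8 had at least 200 cells in every library. The glycogen genes were kept out of the clustering. The level of a gene with a missense change does not check the labels. Prkag2 in cardiomyocyte-like cells stood at 70.0 CPM (UMIs of the gene, with every class scaled to the same total) in Prkag2-p.R299Q, 70.4 CPM in Myh6-R404Q and 66.1 CPM in WT.

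The promoters of 4 of the genes are shown because these genes carry the comparison of genotypes that follows: Phka1 and Ppp1r3a had the 2 lowest folds over WT, Gys1 the next lowest, and Pygm stood close to WT in both mutants. Each window runs from 250 bases before to 50 bases after the start of the gene, from RefSeq on GRCm38.p6, which is the build also called mm10. The tables held a window for 9 of 9 members, with 2 windows for Ugp2. Capitals mark the GC box GGGCGG, the CCAAT box CCAAT and the TATA box TATAAA on either strand.
Phka1, chrX:102644197-102644496 (minus strand): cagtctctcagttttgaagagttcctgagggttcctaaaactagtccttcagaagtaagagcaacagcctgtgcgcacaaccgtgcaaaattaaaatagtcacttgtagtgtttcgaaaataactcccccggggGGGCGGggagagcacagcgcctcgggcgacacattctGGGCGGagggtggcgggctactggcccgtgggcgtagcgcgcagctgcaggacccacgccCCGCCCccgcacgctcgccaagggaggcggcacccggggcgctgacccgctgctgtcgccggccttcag
Ppp1r3a, chr6:14755225-14755524 (minus strand): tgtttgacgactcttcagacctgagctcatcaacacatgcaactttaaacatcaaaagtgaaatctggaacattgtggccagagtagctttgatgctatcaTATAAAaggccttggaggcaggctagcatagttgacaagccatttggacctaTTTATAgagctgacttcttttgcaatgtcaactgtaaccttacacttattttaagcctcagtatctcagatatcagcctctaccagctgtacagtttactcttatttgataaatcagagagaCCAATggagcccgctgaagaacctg
Gys1, chr7:45434589-45434888 (plus strand): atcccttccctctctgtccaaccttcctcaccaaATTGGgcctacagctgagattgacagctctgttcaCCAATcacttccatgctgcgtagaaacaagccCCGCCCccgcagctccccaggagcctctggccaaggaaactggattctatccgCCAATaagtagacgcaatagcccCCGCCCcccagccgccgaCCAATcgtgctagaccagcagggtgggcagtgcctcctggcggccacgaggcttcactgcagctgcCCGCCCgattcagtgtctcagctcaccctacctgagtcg
Pygm, chr19:6384158-6384457 (plus strand): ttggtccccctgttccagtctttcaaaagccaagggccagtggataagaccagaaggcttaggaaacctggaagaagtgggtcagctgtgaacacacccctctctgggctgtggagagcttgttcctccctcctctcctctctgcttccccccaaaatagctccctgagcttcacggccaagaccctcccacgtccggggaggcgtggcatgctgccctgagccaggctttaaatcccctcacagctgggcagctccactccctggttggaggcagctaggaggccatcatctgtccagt

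The 4 windows had no capitalised motif in common. The Phka1 window held 3 GC boxes and neither of the other capitalised motifs. The Ppp1r3a window held 2 TATA boxes and 1 CCAAT box, and the second TATA box overlapped 1 MEF2 motif, a motif named for a factor of muscle genes. The Gys1 window held 3 GC boxes and 4 CCAAT boxes. The Pygm window held none of the capitalised motifs. E-boxes (CANNTG) were in all 4 windows, with 2 in Phka1, 4 in Ppp1r3a, 2 in Gys1 and 3 in Pygm. Over all 32851 windows of this length, 35.7% held a GC box, 37.4% a CCAAT box, 13.6% a TATA box, 72.3% an E-box and 3.19% a MEF2 motif. A match describes letters in a window and not a bound site.

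Levels of the glycogen genes are described first in heart muscle cells. The cardiomyocyte-like class held 1143 cells and 9018429 UMIs in Prkag2-p.R299Q, 1327 cells and 7738355 UMIs in Myh6-R404Q, and 2133 cells and 9164232 UMIs in WT. All 10 of its marker genes had UMIs in each library. Of the 9 genes, 8 were above the level of 10 CPM set as the limit for being called measured in this class, and Stbd1 was below it. Levels are compared here between cells and libraries for the same gene, and not between genes, since 3-prime counts depend on each transcript's end and on whether intronic reads were counted, which the labels used here do not say.

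Classes are ranked here among the 8 with at least 200 cells in every library. Among these, the genes of synthesis were highest in muscle and had UMIs in each of the 7 others. Ugp2 (chromosome 11, 21321138 to 21371201, minus strand, overlapped by Mir1933 on its own strand and by Gm12043 on the other) stood in cardiomyocyte-like cells at 354 CPM (interval 342 to 367) in Prkag2-p.R299Q, 350 CPM (337 to 364) in Myh6-R404Q and 400 CPM (387 to 413) in WT. Outside muscle it was next highest in fibroblast-like cells, at 252, 273 and 293 CPM in Prkag2-p.R299Q, Myh6-R404Q and WT, and between 111 and 196 CPM in the other 6 classes. Among these 8, muscle and fibroblast-like cells stood above the rest in each library, with no overlap of intervals.

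Gys1 (chromosome 7, 45434844 to 45456619, plus strand, overlapped on the other strand by Ruvbl2, so that reads of the pair may not be fully separable) was at 87.4 CPM (81.4 to 93.7) in Prkag2-p.R299Q, 80.9 CPM (74.7 to 87.5) in Myh6-R404Q and 114 CPM (107 to 121) in WT cardiomyocyte-like cells. The 7 other classes lay between 5.77 and 42.1 CPM over the 3 libraries. In each library the muscle class was above every other class by more than their counting intervals. Gbe1 (chromosome 16, 70313949 to 70569716, plus strand) was at 223, 197 and 221 CPM in Prkag2-p.R299Q, Myh6-R404Q and WT cardiomyocyte-like cells, and at 65.6 to 153 CPM in the 7 others.

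The phosphatase targeting genes differed in how far muscle stood out. Ppp1r3a (chromosome 6, 14713977 to 14755274, minus strand), the targeting subunit known from striated muscle, was at 414 CPM (401 to 428) in Prkag2-p.R299Q, 362 CPM (348 to 375) in Myh6-R404Q and 626 CPM (610 to 643) in WT cardiomyocyte-like cells. In the 7 other classes it was at 8.96 to 42.4 CPM in Prkag2-p.R299Q, 13.4 to 48.5 CPM in Myh6-R404Q and 41.2 to 99.2 CPM in WT. Those levels were 2.16% to 15.8% of the muscle level in the same library. The muscle marker genes Myh6, Tnnt2, Actc1, Tnni3, Ttn, Myl2, Ryr2, Pln, Mb and Ckm, measured in the same cells, stood at 2.11% to 243% of their own muscle level, and Ppp1r3a lay within the range of these genes or below it in every pair of class and library. No part of its level in these 7 classes can therefore be read as expression by other cells. Gys1, Gbe1, Pygm, Pygb, Phka1 and Ppp1r3c lay within the range of the muscle genes in 21 of 21 pairs. The same limit holds for their levels in these classes.

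Ppp1r3c (chromosome 19, 36731731 to 36736653, minus strand), a targeting subunit of broader distribution, was at 26.4, 23.3 and 21.8 CPM in Prkag2-p.R299Q, Myh6-R404Q and WT. The counting intervals of the 3 libraries overlapped. Endothelial-like cells were at 15.6 CPM in Prkag2-p.R299Q, 18.1 CPM in Myh6-R404Q and 21.9 CPM in WT. Muscle was above them by more than counting error in Prkag2-p.R299Q, and the intervals of muscle and endothelial-like cells overlapped in Myh6-R404Q and in WT.

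The phosphorylases, the enzymes of breakdown, stood close together across the genotypes. Pygm (chromosome 19, 6384399 to 6398459, plus strand) was at 191 CPM (182 to 200) in Prkag2-p.R299Q, 211 CPM (200 to 221) in Myh6-R404Q and 199 CPM (190 to 209) in WT cardiomyocyte-like cells. Pericyte-like cells came next, at 117, 127 and 87.8 CPM in Prkag2-p.R299Q, Myh6-R404Q and WT, and endothelial-like cells at 116, 120 and 87.3 CPM, while the other 5 classes lay between 20.4 and 55.4 CPM. Pygb (chromosome 2, 150786735 to 150831758, plus strand) was at 373, 398 and 372 CPM in Prkag2-p.R299Q, Myh6-R404Q and WT cardiomyocyte-like cells, and at 47.3 to 132 CPM in the 7 others.

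The makeup of phosphorylase transcripts was also close in the 3 libraries. Pygm gave 33.7% (32.4% to 35.0%) of the summed Pygm, Pygb and Pygl UMIs in Prkag2-p.R299Q cardiomyocyte-like cells, 34.4% (33.1% to 35.8%) in Myh6-R404Q and 34.8% (33.5% to 36.1%) in WT, and the intervals overlapped. Pygl, the liver form, gave 0.210% to 0.444%. In endothelial-like cells Pygm gave 57.0% in Prkag2-p.R299Q, 48.5% in Myh6-R404Q and 50.2% in WT, and in mesothelial-like cells 17.5%, 22.6% and 24.4% in the same order. These shares compare UMIs of different transcripts and describe the libraries, not the amounts of enzyme.

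Phka1 (chromosome X, 102513975 to 102644246, minus strand) was at 172 CPM (163 to 180) in Prkag2-p.R299Q, 157 CPM (149 to 166) in Myh6-R404Q and 338 CPM (326 to 350) in WT cardiomyocyte-like cells. Of the 8 classes, fibroblast-like cells were next in each library, at 112, 120 and 128 CPM in Prkag2-p.R299Q, Myh6-R404Q and WT, and the other 6 classes lay between 63.6 and 114 CPM. Muscle thus stood well above the other classes in WT and less far above them in either mutant library.

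Stbd1 (chromosome 5, 92603041 to 92606579, plus strand) had another distribution. It was at 2.66 CPM (1.71 to 3.96) in Prkag2-p.R299Q, 3.36 CPM (2.19 to 4.92) in Myh6-R404Q and 2.73 CPM (1.77 to 4.03) in WT cardiomyocyte-like cells. Mesothelial-like cells held 33.4, 26.5 and 28.7 CPM, on 62, 103 and 46 UMIs, in Prkag2-p.R299Q, Myh6-R404Q and WT and the intervals of the 3 libraries overlapped. The mesothelial-like level was the highest of the 8 classes in each library, and in WT its interval overlapped that of endocardial-like cells, at 13.3 CPM. Lymphatic endothelial-like cells of Prkag2-p.R299Q had 0 UMIs, which allows up to 5.68 CPM. In the small smooth muscle-like class of WT, with 200 cells, Stbd1 was at 52.2 CPM (31.9 to 80.7), and that class had 22 cells in Prkag2-p.R299Q and 51 in Myh6-R404Q, too few to set beside it. Stbd1 was the one member that exceeded the range of the muscle genes outside muscle in more than 1 pair of class and library, in 12 of 21 pairs, and Ugp2 did so in 1 pair. For Stbd1 that count rests on percents of a muscle level below the limit of 10 CPM, so low levels can exceed the range.

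Classes with fewer cells were not ranked, and some held higher values than the ranked classes outside muscle. Gbe1 was at 281 CPM (210 to 369) in the 118 mixed myeloid-like cells of WT, on 52 UMIs in 17 cells. That interval took in its WT muscle level of 221 CPM. In mixed myeloid-like cells of Prkag2-p.R299Q and Myh6-R404Q it was at 81.6 and 107 CPM. In the 97 Schwann-like cells of WT, Phka1 was at 215 CPM (155 to 289), Pygb at 195 CPM (138 to 266) and Ugp2 at 320 CPM (246 to 408). Ppp1r3a was at 295 CPM (224 to 380) in these cells, on 59 UMIs in 15 cells. In the ranked classes of WT outside muscle it was at 41.2 to 99.2 CPM. The part of muscle RNA in the levels of these Schwann-like cells was not tested. The mutant libraries had 10 Schwann-like cells in Prkag2-p.R299Q and 19 in Myh6-R404Q, too few to set beside them.

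**Figure D1:**
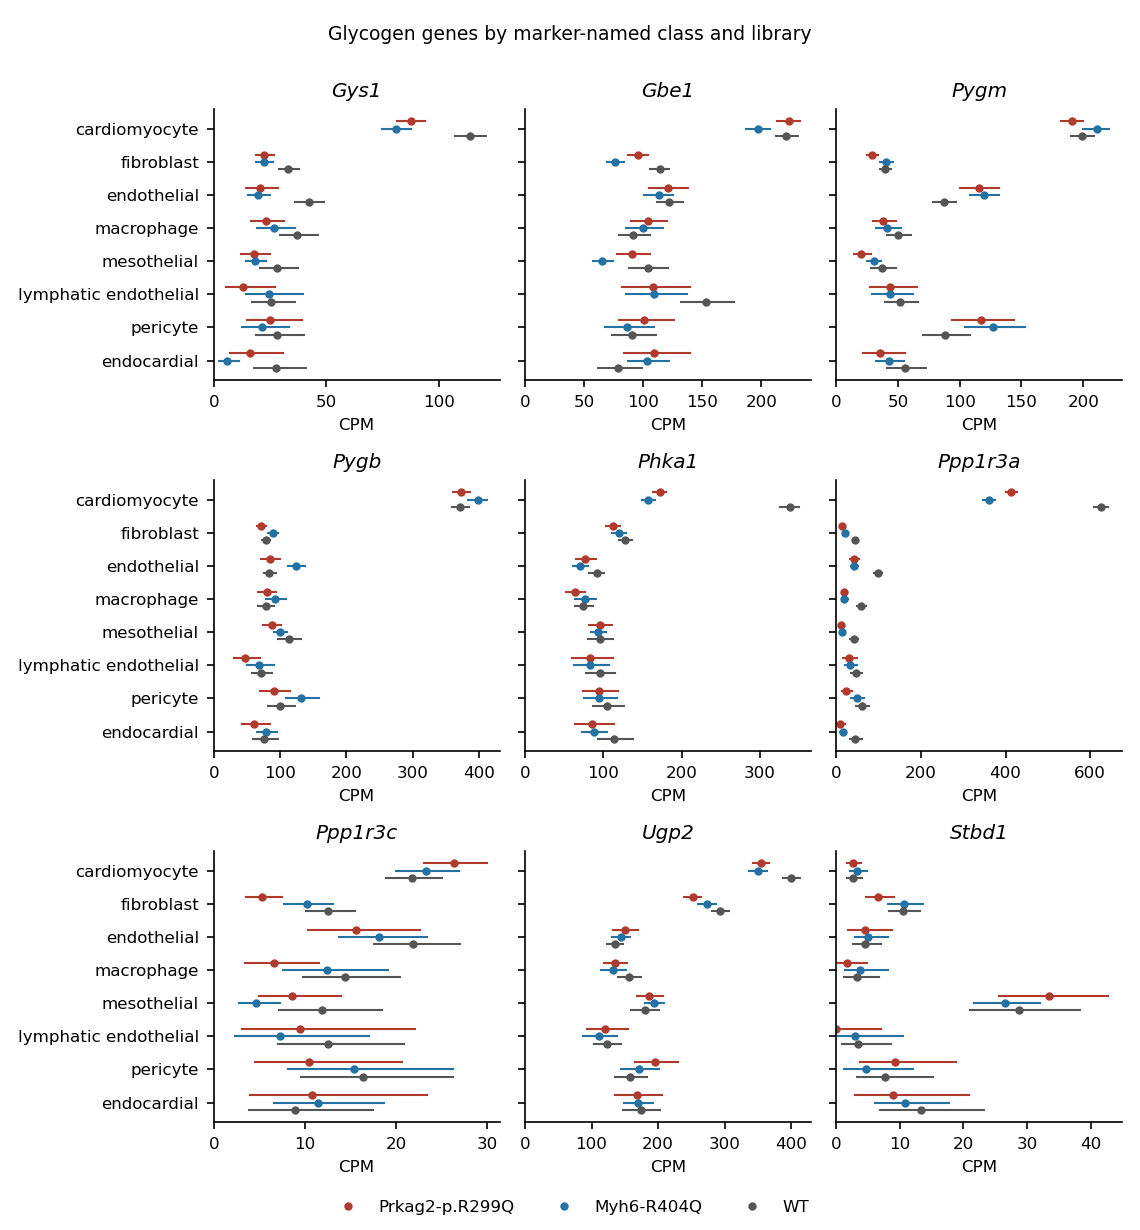
Level of each gene in CPM (horizontal axis, linear from 0) in the 8 classes with at least 200 cells per library. Points are single libraries, with Prkag2-p.R299Q above Myh6-R404Q and WT within each class, and lines are exact Poisson intervals. Muscle is the highest class for all genes but Stbd1, which is highest in mesothelial-like cells, and Ppp1r3c in WT, where endothelial-like cells are level with muscle.

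The comparison of genotypes asked which of the glycogen genes differed between mutant and WT heart muscle cells. Phka1 and Ppp1r3a were lower in both mutant libraries than in WT, while the phosphorylases Pygm and Pygb, the branching enzyme Gbe1, and Ppp1r3c did not pass 1.5-fold in either direction. The values for Ppp1r3c depend on the processing. It was past 1.5-fold higher in Prkag2-p.R299Q with cells thinned to 1000 UMIs, with the 3 muscle subsets weighted equally, and with the fibroblast-like level subtracted. In the last case it was 2.16 times its WT level, with 1 CPM added to both levels. Both comparisons with WT share the WT library, so a value particular to that library enters both.

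Phka1 was 0.507 times its WT level in Prkag2-p.R299Q (interval 0.477 to 0.539) and 0.465 times its WT level in Myh6-R404Q (0.435 to 0.498). Ppp1r3a was 0.661 times its WT level in Prkag2-p.R299Q (0.634 to 0.689) and 0.577 times in Myh6-R404Q (0.552 to 0.604). A gene counts here as apart when its fold is at least 1.5 in either direction with at least 10 CPM in either library, and Ppp1r3a in Prkag2-p.R299Q lay just past that limit. Scaled to the median ratio over genes of at least 50 CPM in place of the class total, Ppp1r3a in Prkag2-p.R299Q was 0.688 times its WT level and no longer past it. With the level in fibroblast-like cells subtracted its log2 ratio was -0.54, also short of the limit.

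In Prkag2-p.R299Q, 2 of the 8 measured members were at least 1.5 times lower than in WT and 0 were higher. Over all 8835 genes measured in this comparison, 3.66% were lower by this rule and 3.01% were higher. In Myh6-R404Q, 2 of the 8 were lower than in WT and 0 were higher, where 2.98% of 9176 genes were lower and 9.83% were higher. The median log2 ratio of the 8 members was -0.12 in Prkag2-p.R299Q over WT, where that of all genes was -0.046, and -0.18 in Myh6-R404Q over WT, where that of all genes was 0.10. A list of 8 genes gives a coarse count.

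Gys1 lay between these groups. It was 0.767 times its WT level in Prkag2-p.R299Q (0.698 to 0.842) and 0.710 times in Myh6-R404Q (0.642 to 0.785). Ugp2 was 0.885 times its WT level in Prkag2-p.R299Q (0.844 to 0.929) and 0.875 times in Myh6-R404Q (0.832 to 0.920). Both intervals of each gene lay below 1, and neither gene passed 1.5-fold over the class as a whole.

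The remaining folds were small. Gbe1 was 1.01 times its WT level in Prkag2-p.R299Q (0.947 to 1.07) and 0.892 times in Myh6-R404Q (0.834 to 0.954). The interval for Pygb was 0.957 to 1.05 times WT in Prkag2-p.R299Q and 1.02 to 1.12 times in Myh6-R404Q, and Pygm was 0.956 and 1.06 times its WT level. Ppp1r3c was 1.21 times its WT level in Prkag2-p.R299Q (0.998 to 1.47) and 1.07 times in Myh6-R404Q (0.867 to 1.31), which counting error alone could give. Stbd1 had 2.66 to 3.36 CPM in the 3 libraries, and its fold over WT had intervals of 0.533 to 1.78 in Prkag2-p.R299Q and 0.684 to 2.22 in Myh6-R404Q.

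**Figure D2:**
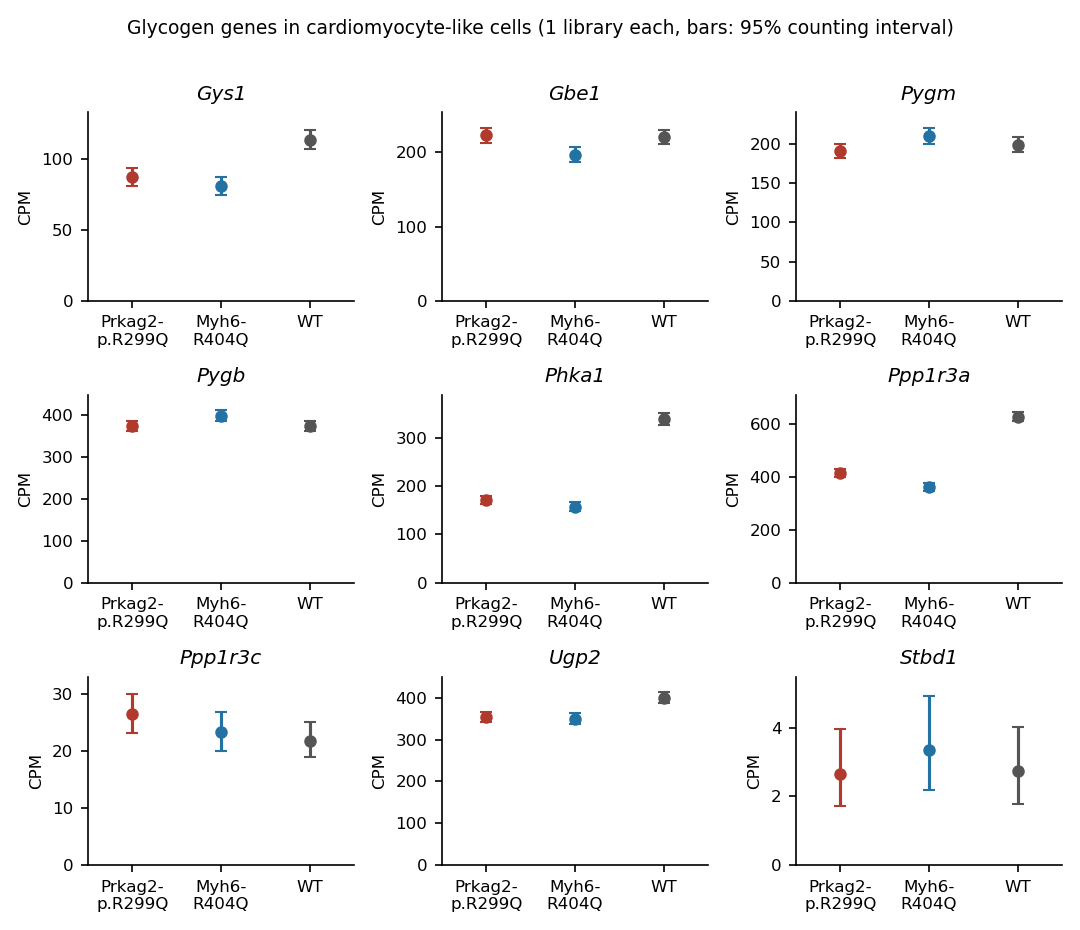
Level of each gene in CPM (vertical axis, linear from 0) in cardiomyocyte-like cells of the Prkag2-p.R299Q, Myh6-R404Q and WT libraries. Points are single libraries and bars are exact Poisson intervals. Phka1 and Ppp1r3a are lower in both mutant libraries than in WT, and Pygb, Pygm and Gbe1 are close in all 3.

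Between the mutants, Prkag2-p.R299Q over Myh6-R404Q, 0 of the 8 measured members were past 1.5-fold in either direction, where 1.49% of 9106 genes were higher and 7.91% were lower. The folds ran between 0.905 for Pygm and 1.15 for Ppp1r3a. The median log2 ratio of the members was 0.12, where that of all genes was -0.14. This comparison does not use the WT library.

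Depth per cell differed between the libraries in the same direction as genotype, with median UMIs of 6557 in Prkag2-p.R299Q, 5178 in Myh6-R404Q and 3658 in WT cardiomyocyte-like cells. The comparison was therefore repeated among cells of like depth in the largest muscle cluster. Among cells with 3000 to 6000 UMIs, Phka1 was at 150 CPM in Prkag2-p.R299Q, 162 CPM in Myh6-R404Q and 345 CPM in WT. Among cells with 6000 to 12000 UMIs it was at 179, 172 and 358 CPM, in the same order. Ppp1r3a was at 389, 332 and 637 CPM in the first of these depth ranges and at 392, 414 and 660 CPM in the second. Both genes were lower in each mutant library than in WT at like depth. Over 4 depth ranges, from 500 UMIs to above 12000, the fold of Phka1 lay between 0.376 and 0.562 in Prkag2-p.R299Q and between 0.453 and 0.481 in Myh6-R404Q. That of Ppp1r3a lay between 0.593 and 0.697 in Prkag2-p.R299Q and between 0.428 and 0.628 in Myh6-R404Q. The fold of Gys1 varied more over the 4 depth ranges. From the shallowest range to the deepest it was 0.279 (0.0889 to 0.671), 0.789, 0.914 and 0.654 times WT in Prkag2-p.R299Q, and 0.495 (0.273 to 0.840), 0.684, 0.828 and 0.566 times in Myh6-R404Q. Gys1 was thus past 1.5-fold lower in the shallowest and the deepest range of both mutant libraries, which held 63 and 200 cells in Prkag2-p.R299Q, 104 and 87 in Myh6-R404Q, and 354 and 52 in WT.

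Counted per cell, the mutant libraries had more cells with no UMI of these genes and fewer with several. Cells of the same cluster were each thinned to 3000 UMIs, which kept 800 of 863 cells in Prkag2-p.R299Q, 910 of 1014 in Myh6-R404Q and 1171 of 1525 in WT. Phka1 then had at least 1 UMI in 39.2% of cells (35.8% to 42.7%) in Prkag2-p.R299Q, 35.5% (32.4% to 38.7%) in Myh6-R404Q and 55.3% (52.4% to 58.2%) in WT. Cells with 3 or more Phka1 UMIs made up 3.00%, 2.86% and 13.2% in Prkag2-p.R299Q, Myh6-R404Q and WT. Ppp1r3a had a UMI in 68.2%, 61.2% and 78.1% of cells, and 3 or more in 14.8%, 13.4% and 30.1%, in the same order.

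As a measure of free RNA, all kept cells deep enough were also thinned to 1000 UMIs. Ppp1r3a then had a UMI in 30.6%, 27.8% and 43.3% of cardiomyocyte-like cells, against 1.34%, 2.47% and 3.83% of fibroblast-like cells, in Prkag2-p.R299Q, Myh6-R404Q and WT. Without thinning the muscle shares were 73.9%, 67.5% and 70.7% and the fibroblast-like shares 3.49%, 4.26% and 6.92%, at the unequal depths of the libraries. The unthinned muscle shares do not keep the order of the CPM, so no order is read from them.

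**Figure D3:**
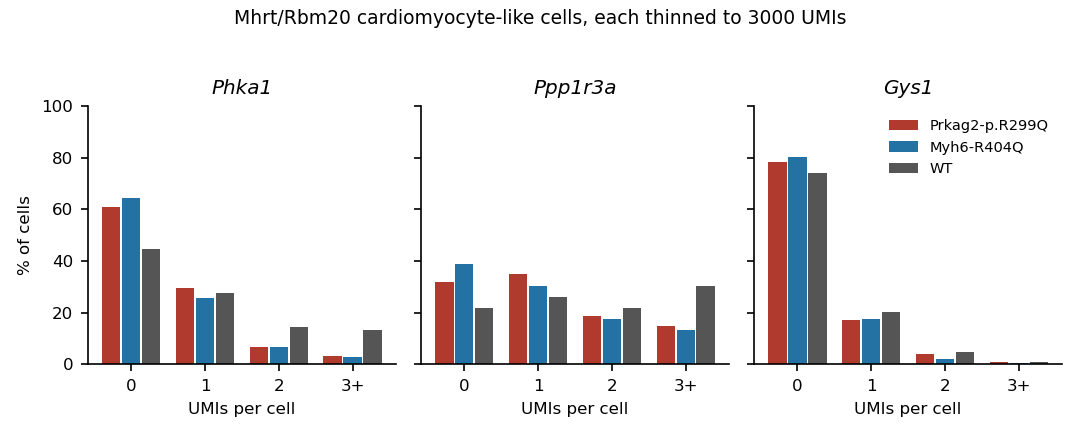
Share of cells (vertical axis, percent, linear from 0) with 0, 1, 2 or at least 3 UMIs of Phka1, Ppp1r3a and Gys1 among cells of the largest cardiomyocyte-like cluster, each thinned to 3000 UMIs. Bars are single libraries. WT has the smallest share of cells with 0 UMIs and the largest share with at least 3 for Phka1 and Ppp1r3a.

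The other classes gave a further comparison for the same genes. Over the 7 other classes, the lowest fold of Phka1 was 0.753 and the median 0.872 in Prkag2-p.R299Q, and the lowest 0.771 and the median 0.899 in Myh6-R404Q. The folds of 0.507 and 0.465 in muscle lay below all of these. In fibroblast-like cells, the deepest class after muscle in total UMIs, Phka1 was 0.872 times WT in Prkag2-p.R299Q (0.788 to 0.965) and 0.935 times in Myh6-R404Q (0.846 to 1.03). Those intervals did not reach the folds in muscle. The levels of Phka1 in the 7 other classes lay within the range of the muscle genes, and the part of free muscle RNA in these folds was not tested.

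Ppp1r3a and Gys1 did not show that contrast. Ppp1r3a was 0.202 to 0.653 times its WT level in the other classes of Prkag2-p.R299Q and 0.324 to 0.797 times in those of Myh6-R404Q. In fibroblast-like cells the muscle gene Ryr2, the calcium release channel, was lower than in WT as well. It stood there at 260 CPM in Prkag2-p.R299Q, 275 CPM in Myh6-R404Q and 616 CPM in WT. Muscle genes were not lower in every class where Ppp1r3a was. Myh6 in pericyte-like cells was higher in both mutant libraries, at 5013, 6495 and 4114 CPM in the same order. The part of free muscle RNA in the folds of Ppp1r3a was not tested. Gys1 was 0.490 times its WT level in endothelial-like cells of Prkag2-p.R299Q (0.334 to 0.703) and 0.466 times in those of Myh6-R404Q (0.342 to 0.627), and 0.677 and 0.674 times in fibroblast-like cells. Pygm was 1.32 times its WT level in endothelial-like cells of Prkag2-p.R299Q (1.11 to 1.58) and 1.37 times in those of Myh6-R404Q (1.18 to 1.59). Myh6, a muscle gene, was higher in the same cells as well, at 7263 CPM in Prkag2-p.R299Q, 8141 CPM in Myh6-R404Q and 5905 CPM in WT. The muscle marker genes did not all move alike there relative to their own muscle level. Their median was 71.8%, 83.5% and 89.4% of that level in Prkag2-p.R299Q, Myh6-R404Q and WT. The lowest, Ryr2, was at 7.35%, 8.78% and 8.57%, and the highest, Mb, at 194%, 186% and 243%. The level of Pygm there, 60.6%, 56.9% and 43.8% of its muscle level in Prkag2-p.R299Q, Myh6-R404Q and WT, lay within the range of the muscle genes, and the part of free muscle RNA was not tested.

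**Figure D4:**
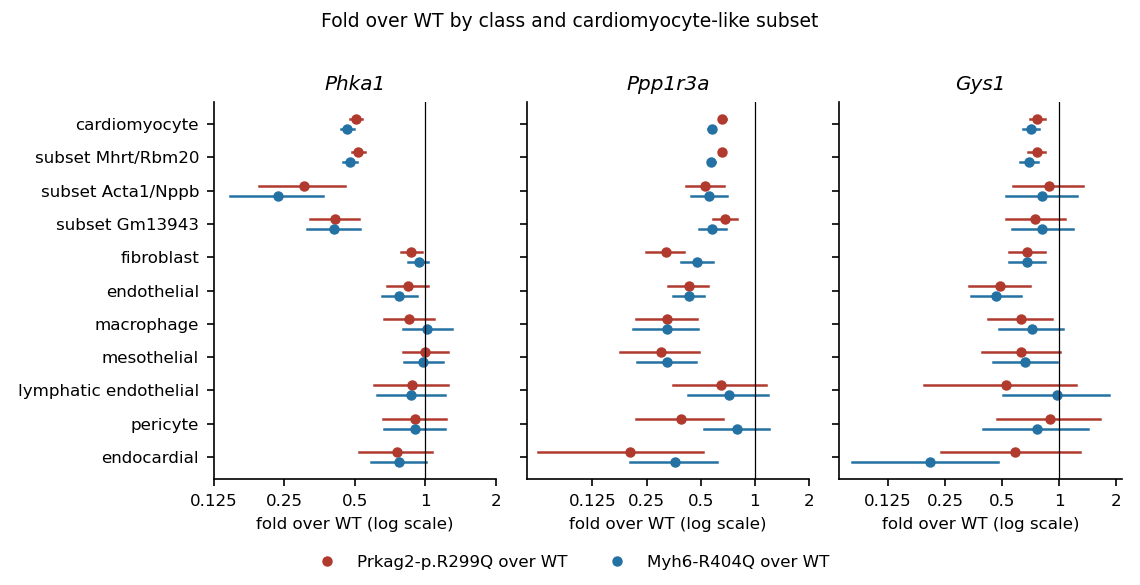
Fold over WT (horizontal axis, log scale) of Phka1, Ppp1r3a and Gys1 in cardiomyocyte-like cells, their 3 subsets and the 7 other classes. Points are the Prkag2-p.R299Q library, drawn above, and the Myh6-R404Q library, and lines are exact conditional binomial intervals. Phka1 is well below WT in the muscle rows and between 0.753 and 1.02 in the other classes, while Ppp1r3a is below WT in all rows.

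Cardiomyocyte-like cells came from 3 clusters, called here by their leading genes. The Mhrt/Rbm20 subset was the largest, with 863 cells in Prkag2-p.R299Q, 1014 in Myh6-R404Q and 1525 in WT, and it was deep, with medians of 7986, 5949 and 4377 UMIs. The Acta1/Nppb subset had 240, 260 and 503 cells, medians of 1075, 1062.5 and 961 UMIs, and a median mitochondrial share of 5.14%, 5.27% and 4.39%, against 0.718%, 0.899% and 1.01% in the Mhrt/Rbm20 subset. The Gm13943 subset had 40, 53 and 105 cells of the highest depth. The Acta1/Nppb subset also carried more of the markers of fibroblasts, with 8 of 8 fibroblast markers detected and a summed level of 929, 1201 and 798 CPM in Prkag2-p.R299Q, Myh6-R404Q and WT, against 147, 215 and 156 CPM in the Mhrt/Rbm20 subset and 3134 to 3965 CPM in fibroblast-like cells. Endothelial markers, with 8 of 8 detected, summed to 827, 1082 and 1158 CPM in the Acta1/Nppb subset and to 934, 979 and 938 CPM in the Gm13943 subset, against 140, 221 and 252 CPM in the Mhrt/Rbm20 subset. Smooth muscle markers summed to 41.9, 269 and 289 CPM in the Gm13943 subset. Of 4 atrial markers, Nppa, which is also a stress gene of ventricular muscle, was at 1605, 282 and 78.2 CPM in the Acta1/Nppb subset of Prkag2-p.R299Q, Myh6-R404Q and WT, out of 1607, 298 and 91.2 CPM for the whole list. Sln was at 0 in all 3 libraries and Myl4 at 0 in Prkag2-p.R299Q. The part of other cells in the results on these subsets was not tested.

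Finer clustering of the cardiomyocyte-like cells gave 7 subclusters, and the genotypes were unevenly spread over them. The largest held 690 cells of Prkag2-p.R299Q, 85 of Myh6-R404Q and 1301 of WT, and the next 81, 777 and 55. A subcluster of 795 cells led by Mgp and Dcn carried fibroblast markers, with 132, 186 and 477 cells, and one led by Nppa and Acta1 held 109, 78 and 16 cells, in the same order. With the subclusters that carried markers of another cell type left out, the log2 ratio over WT was -0.97 in Prkag2-p.R299Q and -1.09 in Myh6-R404Q for Phka1, and -0.63 and -0.79 for Ppp1r3a. This alternative was chosen after seeing the data.

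Phka1 was lower than in WT in each subset. Its folds in Prkag2-p.R299Q and Myh6-R404Q were 0.518 and 0.476 in the Mhrt/Rbm20 subset, 0.303 and 0.236 in the Acta1/Nppb subset, and 0.410 and 0.409 in the Gm13943 subset. The intervals were widest in the Acta1/Nppb subset, at 0.196 to 0.455 in Prkag2-p.R299Q and 0.146 to 0.367 in Myh6-R404Q. Genes of like length, 100 to 200 kb, had a median log2 ratio over WT of -0.50 in Prkag2-p.R299Q and -0.32 in Myh6-R404Q in that subset. Ppp1r3a was 0.657 and 0.573 times WT in the Mhrt/Rbm20 subset, 0.528 and 0.556 times in the Acta1/Nppb subset, and 0.686 and 0.581 times in the Gm13943 subset.

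The phosphorylases and Ppp1r3c were more than 1.5 times higher than in WT in the Acta1/Nppb subset of both mutant libraries, and were not in the larger subset. In Prkag2-p.R299Q over WT 3 of 9 members were higher and 4 lower, where 24.4% and 32.6% of all genes were. In Myh6-R404Q over WT 3 were higher and 4 lower, where 24.7% and 26.0% were. One of the genes counted as lower, Stbd1, had 2 UMIs in Prkag2-p.R299Q, 1 in Myh6-R404Q and 7 in WT. Passing 1.5-fold was thus common in this subset, and nothing particular to the members is read from these counts. In that subset Pygm was at 480 CPM (410 to 560) in Prkag2-p.R299Q, 422 CPM (358 to 495) in Myh6-R404Q and 210 CPM (175 to 250) in WT. Pygb was at 518 CPM, 514 CPM and 301 CPM, and Ppp1r3c at 111 CPM (78.3 to 152), 66.3 CPM (42.5 to 98.6) and 22.8 CPM (12.5 to 38.3), in the same order. Gbe1 stood the other way, at 84.5 CPM (56.6 to 121), 82.8 CPM (55.9 to 118) and 174 CPM (143 to 211). Of all genes over 200 kb, as Gbe1 is, 58.7% in Prkag2-p.R299Q and 44.4% in Myh6-R404Q were at least 1.5 times lower than in WT in this subset. In the Mhrt/Rbm20 subset the folds over WT of these 4 genes lay between 0.915 and 1.06 in both mutant libraries. The Acta1/Nppb subset may hold a different mix of cells in each library. Of the finer subclusters, that led by Mgp and Dcn held 132, 186 and 477 cells, and that led by Nppa and Acta1 109, 78 and 16. Their overlap with the Acta1/Nppb subset is not given here, and the part of such a mix in its folds was not tested.

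Most muscle genes of the Acta1/Nppb subset were also higher in the mutant libraries. Of the 10 muscle markers, 8 were at least 1.5 times higher than in WT in each mutant library. Over all genes, 24.4% in Prkag2-p.R299Q and 24.7% in Myh6-R404Q were. Ryr2 went the other way, at 7175 CPM in Prkag2-p.R299Q, 5244 CPM in Myh6-R404Q and 10722 CPM in WT. Myh6 was at 47220 CPM in Prkag2-p.R299Q, 35712 CPM in Myh6-R404Q and 16378 CPM in WT cells of that subset, and Mb, the myoglobin gene, at 5006, 5385 and 2120 CPM. The nuclear RNA Malat1 stood the other way, at 22059, 22938 and 40337 CPM. The 10 muscle markers summed to 143672, 115371 and 69562 CPM. The level of every gene in this subset is a share of a total that these RNAs fill unequally.

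Within a mutant library, the fold of the Acta1/Nppb over the Mhrt/Rbm20 subset was high for the shortest members and low for the longest, with Stbd1 left out. Stbd1, the shortest with 3.54 kb, had too few UMIs to place. Its fold was 2.44 (0.276 to 10.1) in Prkag2-p.R299Q and 0.814 (0.0198 to 5.01) in Myh6-R404Q. Ppp1r3c, which spans 4.92 kb, was 5.06 times as high in Prkag2-p.R299Q (3.47 to 7.22), 3.06 times in Myh6-R404Q (1.90 to 4.73) and 1.11 times in WT (0.592 to 1.91). Pygm, with 14.1 kb, was 2.68, 2.13 and 1.07 times as high. Phka1, with 130 kb, was 0.455, 0.386 and 0.777 times as high, and Gbe1, with 256 kb, 0.367, 0.399 and 0.774 times as high. Members of middle length did not keep that order: Gys1 (21.8 kb) was 1.16 and 1.17 times as high in Prkag2-p.R299Q and Myh6-R404Q, Ppp1r3a (41.3 kb) 0.625 and 0.754 times, Pygb (45.0 kb) 1.40 and 1.29 times, and Ugp2 (50.1 kb) 0.974 and 1.27 times. In Prkag2-p.R299Q, 2 of 8 measured members were higher and 3 lower by at least 1.5-fold, where 38.8% and 33.1% of all genes were. In Myh6-R404Q, 2 were higher and 2 lower, where 33.7% and 30.7% of all genes were. In WT, with 9 members measured, 1 (Stbd1, on 7 UMIs) was higher and 0 lower, where 31.1% and 11.2% of all genes were.

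All genes taken by length showed an order of the same direction. The median log2 ratio of the Acta1/Nppb over the Mhrt/Rbm20 subset was 1.38 in Prkag2-p.R299Q for genes under 10 kb and -0.80 for genes over 200 kb, and 0.83 and -0.16 in WT. Nothing particular to glycogen is read from the contrast of subsets.

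**Figure D5:**
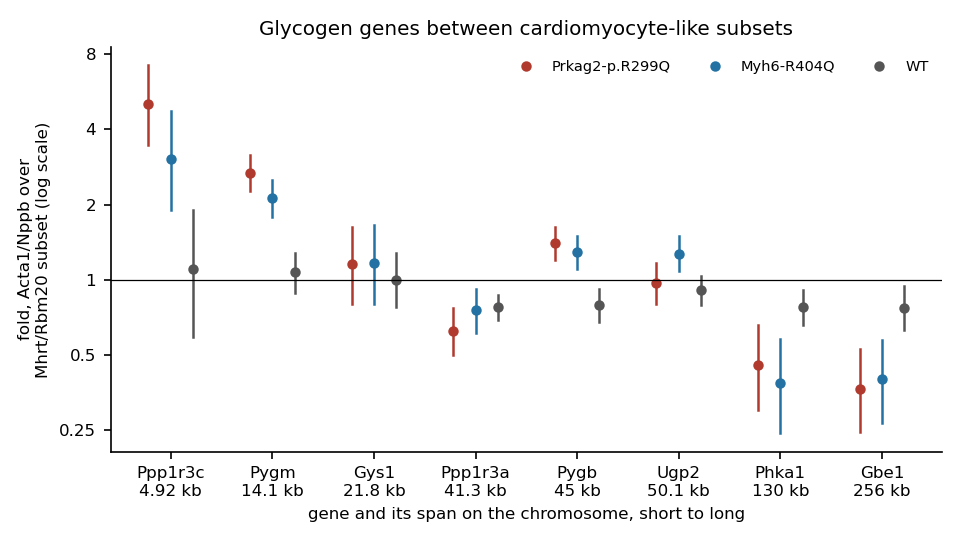
Fold of the Acta1/Nppb over the Mhrt/Rbm20 subset (vertical axis, log scale) for 8 genes ordered by their span on the chromosome in kilobases. Stbd1 is not drawn. Points are single libraries, with Prkag2-p.R299Q left of Myh6-R404Q and WT, and lines are exact conditional binomial intervals. Ppp1r3c, Pygm and Pygb are higher in the Acta1/Nppb subset and Ppp1r3a, Phka1 and Gbe1 lower in both mutant libraries, and in WT the folds lie between 0.774 and 1.11.

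In the whole muscle class the genotype contrasts varied less with length. The medians of 5 length ranges lay between -0.074 and 0.0087 in Prkag2-p.R299Q over WT, and between 0.027 and 0.20 in Myh6-R404Q over WT. Among the 1020 measured genes of 100 to 200 kb, the range that holds Phka1, the median log2 ratio was -0.053 in Prkag2-p.R299Q over WT and 4.90% were at least 1.5 times lower. In Myh6-R404Q over WT the median over 1036 such genes was 0.027 and 3.76% were lower. The log2 ratio of Phka1 was -0.98 in Prkag2-p.R299Q and -1.10 in Myh6-R404Q. Among long muscle genes, Ryr2 was at 11351 CPM in Prkag2-p.R299Q, 8765 CPM in Myh6-R404Q and 14429 CPM in WT cardiomyocyte-like cells, and Ttn at 22074, 20032 and 24241 CPM.

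The rest of the pathway was described from 25 further genes, of which 16 were measured in cardiomyocyte-like cells. In Prkag2-p.R299Q over WT, 0 were past 1.5-fold in either direction. In Myh6-R404Q over WT, 1 was higher and 1 lower. The higher one was Phkg1, the muscle catalytic subunit of phosphorylase kinase, at 107 CPM in Prkag2-p.R299Q, 170 CPM in Myh6-R404Q and 86.1 CPM in WT. The lower one was Ppp1r3b, another phosphatase targeting subunit, at 40.7 CPM in Prkag2-p.R299Q, 28.9 CPM in Myh6-R404Q and 55.3 CPM in WT. Prkag2-p.R299Q over Myh6-R404Q had 0 higher and 2 lower, Phkg1 and Gaa, the lysosomal enzyme that degrades glycogen, with Gaa at 14.2 CPM in Prkag2-p.R299Q and 22.5 CPM in Myh6-R404Q.

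The other subunits of phosphorylase kinase did not share the fold of Phka1. Phkb, the beta subunit, was at 211 CPM in Prkag2-p.R299Q, 206 CPM in Myh6-R404Q and 228 CPM in WT. Phka2, the liver form of the alpha subunit, named after its values were seen to complete the kinase, was at 70.9, 63.7 and 64.7 CPM. Of 8 genes of glucose entry and use, 7 were measured, and only Txnip, an arrestin that limits glucose uptake, passed 1.5-fold, at 90.3 CPM in Prkag2-p.R299Q, 322 CPM in Myh6-R404Q and 83.3 CPM in WT.

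Across the 8 classes and 3 libraries, the genes whose log2 CPM ran most like each member were given by Pearson's r over 24 points, among 7684 genes of at least 50 CPM in some point. For Ppp1r3a these were Rpl3l (0.970), Ldb3 (0.969) and Ryr2 (0.965), and those for Pygm included Myh6 (0.967) and Mfn2 (0.953). For Pygb they were Gm20757 (0.951), Cpeb3 (0.946) and Fbxo32 (0.946). Phka1 ran less close to any gene, with Ifrd1 (0.882), Gm41505 (0.882) and Slc25a42 (0.869), and so did Gys1, with Camk2a (0.895), Vegfa (0.895) and Smpx (0.893). Gbe1 was nearest to Pla2g4e (0.924), Ugp2 to Magi2 (0.906), Ppp1r3c to Pln (0.900) and Stbd1 to Frk (0.882). Among the members, Gys1 and Ppp1r3a ran most alike (0.869), then Phka1 and Ugp2 (0.849), and Stbd1 and Gbe1 least (-0.478). Points of a library share its depth and its free RNA, so these values are descriptions.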

How the data were processed

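The deposited matrices hold UMI counts, made by the authors with Cell Ranger 7.0.1 on mm10, per the submitters' processing notes. Whether intronic reads were counted is not given in the sources used here. Barcodes needed at least 500 UMIs, 300 genes and at most 20% mitochondrial UMIs. Scrublet (scanpy 1.11.5) marked 1110, 2106 and 3202 doublets in Prkag2-p.R299Q, Myh6-R404Q and WT, 14.0%, 16.6% and 17.8% of passing barcodes, which were removed. Cells were clustered with leidenalg 0.10.2 at resolution 0.8 from 2000 variable genes and 30 principal components, without glycogen genes. Classes were named from marker lists. Free RNA was not removed.

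UMIs were summed per library and class and given as CPM of that total. For log2 ratios 1 CPM was added to both levels. CPM have exact Poisson intervals, folds exact conditional binomial intervals and shares exact binomial intervals, all at 95%, and a count of 0 was taken to allow 3 counts. No test was made, as there was 1 library per genotype. The fold rule was tried on simulated counts that held counting error only, so this cannot check variation between libraries or animals. Genes named are the 9 members, genes of preset glycogen, glucose, muscle and marker lists past 1.5-fold or of highest level, and up to 3 genes nearest to each member; some genes are not reported here. The members and lists were chosen with earlier results of these data known. Coordinates are from GENCODE M21 on mm10.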

Additional observations from a re-analysis of the deposited data

How the results depend on the processing

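No paired analysis was possible because each genotype had 1 library, and for the same reason no replicate could be left out. The count of members at least 1.5-fold apart and their median log2 ratio were recomputed for each of the 3 genotype comparisons in cardiomyocyte-like cells under 15 alternatives, of which 2 (the Mhrt/Rbm20 cluster alone, and finer clusters with markers of other cell types left out) were chosen after seeing the data. Of these 90 values, 85 stayed within the limits set for the same result. In Prkag2-p.R299Q over WT, the count was 1 (Phka1) when scaled to the median ratio over genes of at least 50 CPM, and the median was -0.021 when the fibroblast-like level of each gene was subtracted. In Myh6-R404Q over WT the count was 4 (Gys1, Phka1 and Ppp1r3a lower, Ppp1r3c higher) with cells thinned to 1000 UMIs. In Prkag2-p.R299Q over Myh6-R404Q the count was 1 (Ppp1r3c) with the 3 muscle subsets weighted equally and 2 (Phka1 and Ppp1r3c) with the fibroblast-like level subtracted. In Prkag2-p.R299Q over WT the genes counted also differed among values kept as the same result. With the fibroblast-like level subtracted the 2 genes were Phka1 and Ppp1r3c. With cells thinned or subsets weighted equally, Ppp1r3c joined Phka1 and Ppp1r3a. The count thus rose under those alternatives but stayed within the limits, which are not stated here. Ppp1r3c ranged over 1.06 to 2.16 times WT in Prkag2-p.R299Q. Fold ranges in this section were taken from log2 ratios, for which 1 CPM was added to both levels. The cause was not tested. Phka1 stayed at least 1.5 times lower than WT in both mutants under all 15 alternatives. Its lowest values, 0.287 times WT in Prkag2-p.R299Q and 0.183 times in Myh6-R404Q, came with the fibroblast-like level subtracted. Ppp1r3a ranged over 0.620 to 0.688 times WT in Prkag2-p.R299Q and 0.570 to 0.586 times in Myh6-R404Q. Gbe1 ranged over 0.669 to 1.13 times WT in Myh6-R404Q, close to the 1.5-fold limit at its lowest. Of the values for single members, 318 stayed the same by the limits set and 42 moved. Few UMIs limit Stbd1 in muscle. The Gm13943 subset is limited by its 40, 53 and 105 cells in Prkag2-p.R299Q, Myh6-R404Q and WT. The Acta1/Nppb subset is limited by its total UMIs, which were fewer than those of the Gm13943 subset in each library.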
